A study of Mus musculus with 4 samples.

Results

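Genes whose products sense DNA damage or repair it, 43 in number, were examined in the small intestine (SI) of irradiated mice with and without p53. They were chosen by gene name from the table of gene counts, grouped into 10 repair pathways, and account for 43 of its 56748 genes. All 43 had enough reads to be tested, among 16094 tested genes. The study took total RNA from the SI at day 1 after 12 Gy total body irradiation and sequenced 4 libraries, 2 from p53+/+ mice (labelled WT) and 2 from p53-/- mice. The p53-/- animals carry an inactivated Trp53 gene in every cell from conception, both genotypes came from a commercial supplier as age- and gender-matched young adults, and every animal was irradiated, so the values compare irradiated tissue with irradiated tissue and give no level before irradiation. The p53+/+ libraries are called libraries 7 and 8 and the p53-/- libraries 9 and 10, after the numbers in the column names. The number of mice behind a library was not stated, and p-values measure only the spread between these libraries. RNA came from the whole SI, so a lower level can mean fewer cells of a type or less RNA per cell, which bulk libraries cannot tell apart.

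Ionizing radiation breaks DNA strands and damages bases. Double-strand breaks are detected by the ATM, ATR and DNA-PK kinases and repaired by homologous recombination, which copies the sister chromatid and therefore works in S and G2 phase, or by end joining, which needs no template; damaged bases are cut out by base excision repair, and bulky lesions by nucleotide excision repair. The transcription factor p53 is activated by ATM and CHK2 and induces cell cycle arrest and apoptosis genes together with a number of repair genes. Known targets among these include Polk, Xpc and Rrm2b, which are not a full list of the targets in the set. In the intestine, cells divide in the crypts, and recombination and replication genes are transcribed mostly in such dividing cells.

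The stretches before 6 start sites are shown as examples from the set. Mgmt, Ercc5 and Polk had the lowest p53-/- values relative to p53+/+, Rad54l and Brca2 belong to the recombination genes that were higher, and Fanca was the one member whose window held a p53 half-site. Sequences are those of RefSeq on GRCm38.p6 and run 5′ to 3′ over the 250 bases before the most upstream start. Capitals mark matches, on either strand, to the CCAAT box (CCAAT), the GC box (GGGCGG), the CHR element (TTTGAA), the E2F site or the p53 half-site, the last 2 searched as degenerate motifs.
Mgmt, chr7:136894336-136894585 (+ strand): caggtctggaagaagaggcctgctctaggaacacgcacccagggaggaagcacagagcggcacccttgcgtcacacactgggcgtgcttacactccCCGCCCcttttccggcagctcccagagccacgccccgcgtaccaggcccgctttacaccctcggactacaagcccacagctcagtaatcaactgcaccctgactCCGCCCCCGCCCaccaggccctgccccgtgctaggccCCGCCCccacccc
Ercc5, chr1:44147494-44147743 (+ strand): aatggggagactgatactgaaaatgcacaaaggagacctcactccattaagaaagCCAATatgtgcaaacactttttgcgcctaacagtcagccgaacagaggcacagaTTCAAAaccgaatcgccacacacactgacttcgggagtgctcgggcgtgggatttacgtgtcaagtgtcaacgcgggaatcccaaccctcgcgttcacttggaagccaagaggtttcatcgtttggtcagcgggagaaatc
Polk, chr13:96542580-96542829 (- strand): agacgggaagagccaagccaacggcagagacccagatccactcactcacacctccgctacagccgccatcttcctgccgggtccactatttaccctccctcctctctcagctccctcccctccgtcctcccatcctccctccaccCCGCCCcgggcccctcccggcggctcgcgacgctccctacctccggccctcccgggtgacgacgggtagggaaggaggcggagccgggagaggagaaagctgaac
Rad54l, chr4:116123691-116123940 (- strand): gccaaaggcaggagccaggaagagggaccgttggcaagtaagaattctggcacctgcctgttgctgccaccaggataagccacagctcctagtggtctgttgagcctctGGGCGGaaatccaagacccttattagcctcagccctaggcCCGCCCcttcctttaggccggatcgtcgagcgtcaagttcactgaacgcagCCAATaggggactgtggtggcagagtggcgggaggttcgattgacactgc
Brca2, chr5:150522371-150522620 (+ strand): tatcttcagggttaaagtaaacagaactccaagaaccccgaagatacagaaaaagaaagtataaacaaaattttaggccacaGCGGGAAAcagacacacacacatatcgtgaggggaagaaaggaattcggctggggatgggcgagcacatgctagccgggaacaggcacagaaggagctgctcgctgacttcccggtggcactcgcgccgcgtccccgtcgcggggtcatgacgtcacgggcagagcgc
Fanca, chr8:123318577-123318826 (- strand): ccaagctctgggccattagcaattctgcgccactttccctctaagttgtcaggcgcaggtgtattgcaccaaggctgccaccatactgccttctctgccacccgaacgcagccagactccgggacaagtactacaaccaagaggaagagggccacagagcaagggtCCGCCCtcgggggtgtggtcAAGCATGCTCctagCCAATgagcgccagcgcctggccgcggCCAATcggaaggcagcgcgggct
Windows of 300 bases, from 250 before to 50 after the start, were found for 34 of the 43 members and for 27025 genes in all. No window was found for Nbn, Rad50, Exo1, Wrn, Prkdc, Fancd2, Ddb2 or the known p53 targets Xpc and Rrm2b. These genes were not searched for any motif. A GC box stood in 67.6% of the member windows and 35.9% of all windows, and a CCAAT box in 58.8% and 38%. E2F sites were found in 5 member windows (Brca2, Chek2, Msh6, Rad51c and Xrcc6), which is 14.7% against 2.33% of all windows. The p53 half-site stood in 2.94% of member windows (Fanca, bases -64 to -55 from the start) and 8.34% of all windows, and the CHR element in 2.94% (Ercc5) and 18.2%. In the printed stretches, Mgmt held 4 GC boxes, of which the pair at -50 to -39 were adjacent, Polk held 1, and Rad54l held 2 together with a CCAAT box at -50 to -46. These are matches of letters and do not show binding. The windows of all genes were not limited to tested genes or matched for base content.

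Trp53, the inactivated gene, had 57.7 and 47.1 CPM (counts scaled to a common library total) in p53+/+ and 19.8 and 22.5 in p53-/-. The genotypes did not overlap, in the direction the labels require, and reads of the gene were still present in both p53-/- libraries. The log2 difference was -1.31 (SE 0.188), with an adjusted p of 0.0602 by the quasi-likelihood test of edgeR, adjusted by Benjamini-Hochberg over all tested genes, as used throughout. DESeq2 gave an adjusted p of 1.32e-05 for Trp53.

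Total counts were 15005479 and 17430246 (p53+/+) and 19811346 and 22173164 (p53-/-), and single members had 13 to 1711 counts per library. Libraries 8 and 10 stood apart in their cell type markers. Library 8 had a summed level of 3663 CPM over 4 smooth muscle genes, against 393 to 853 in the other 3 libraries. Library 10 had 385 CPM over 5 B cell genes, against 20.3 in library 9 and 1.11 and 1.82 in p53+/+. It also had 588 counts of Xist, against 0 to 4 elsewhere, beside 109 to 117 CPM over 4 Y-linked genes in every library, and 4.59% of its counts came from Rn18s-rs5 against 0.296% to 0.863%. T cell markers summed to 5.94 and 12.2 CPM in p53+/+ and 53.4 and 98.7 in p53-/-, with all 7 genes higher and Cd2 at 0 in library 7. The 4 macrophage genes summed to 16.4 and 50.5 CPM against 65.8 and 79.1, 3 red blood cell genes to 0.433 and 1.23 against 2.15 and 4.82, and 3 adipocyte genes to 15.3 and 22.4 against 0 and 0.199, with Plin1 at 0 in both p53-/- libraries. The 5 epithelial markers were present at high level in every library, with summed levels of 19413 and 13919 CPM in p53+/+ and 13408 and 10877 in p53-/-.

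As a group, the repair genes lay above the average gene in the p53-/- libraries, and Mgmt, Ercc5 and Polk had the opposite direction. The median log2 difference between p53-/- and p53+/+ was 0.38 over the 43 members and -0.01 over all 16094 genes, and 33 members had a value above 0 and 10 below. In 27 members both p53-/- libraries were above both p53+/+ libraries, which is 62.8% of them, where 26.4% of all genes did so. Both p53-/- libraries were below both p53+/+ libraries in 5 members (11.6%), where 24.4% of all genes did so, and 11 members overlapped. The shares of 26.4% and 24.4% over all genes also apply beside the counts per pathway given below. No member passed an adjusted p of 0.05 in edgeR's quasi-likelihood test, where 0.298% of all genes were called higher and 0.193% lower. At an unadjusted p under 0.05, 10 members were higher (10% of all genes) and 3 lower (7.92% of all genes). DESeq2 called 0 members higher and 2 lower, Mgmt and Ercc5, where it called 5.05% of all genes higher and 4.12% lower. The members' median was 0.27 without library 10, 0.60 without library 9, 0.32 without library 8 and 0.45 without library 7. Without library 8 the members lower without overlap numbered 9 instead of 5, where 39.7% of all genes were lower without overlap.

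**Figure D1:**
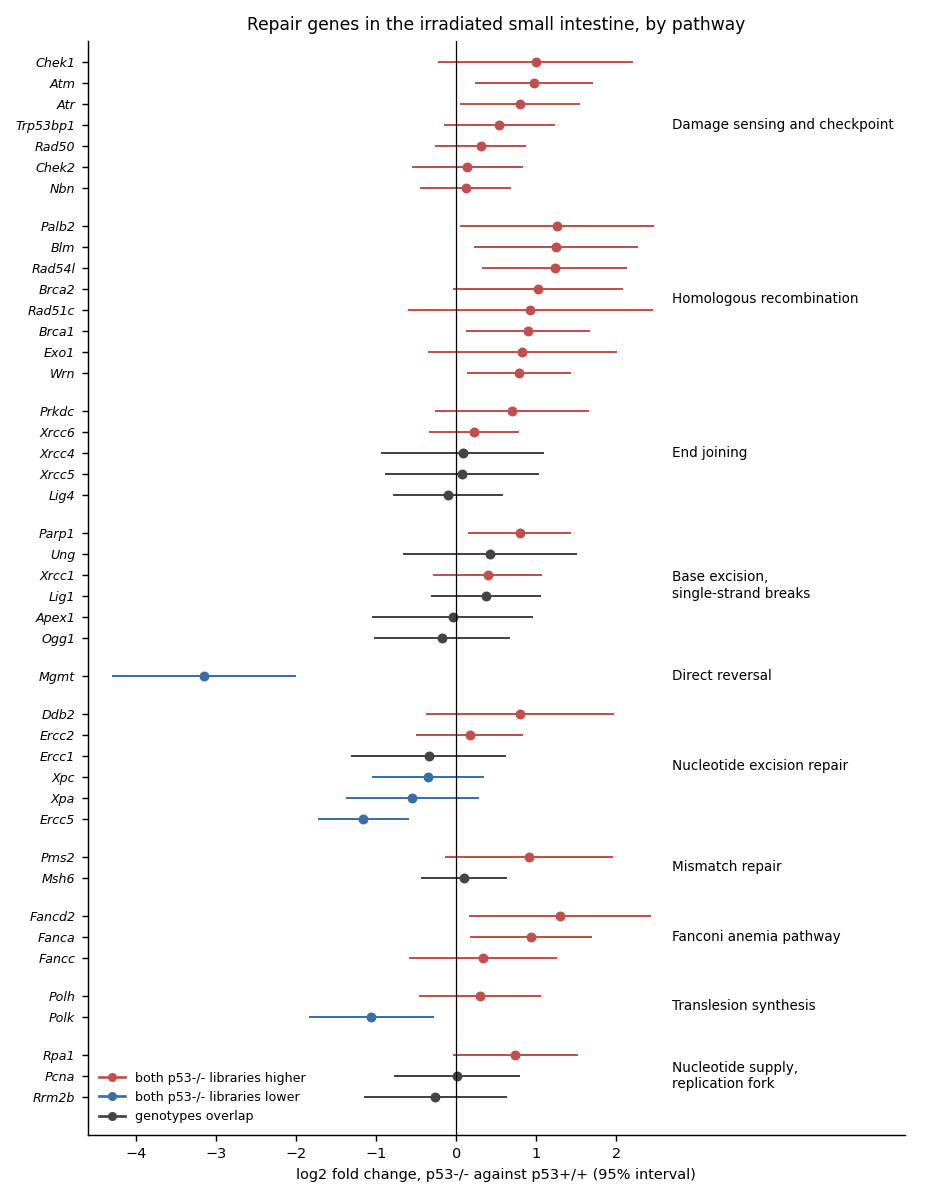
Log2 difference between p53-/- and p53+/+ (x axis) for each of the 43 members, grouped by pathway. Points are estimates, and lines are 95% intervals derived from edgeR's F statistic. Red marks the 27 members with both p53-/- libraries higher, blue the 5 with both lower and grey the 11 that overlap. Mgmt lies far left of all others, and the 8 recombination genes all lie right of 0.

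Mgmt, the only direct reversal gene of the set, encodes the methyltransferase that removes alkyl groups from the O6 position of guanine and is used up in doing so. It had 14.98 and 12.1 CPM in p53+/+ and 1.05 and 1.99 in p53-/-, from 242, 186, 24 and 40 counts. Both p53-/- libraries were far below both p53+/+ libraries, and the gap was larger than the spread within either genotype. The means were 13.5 ± 2.06 and 1.52 ± 0.663 CPM (SD, n = 2 each), 8.88-fold lower in p53-/-, with a log2 difference of -3.15 (SE 0.454, 95% interval -4.29 to -2.01). The adjusted p was 0.0602 in edgeR's quasi-likelihood test and 1.06e-07 in DESeq2. Among the 43 members it had the largest difference in either direction. Leaving out each library in turn gave log2 differences of -3.62 to -2.77. Relative to exon length, Mgmt stood at 4.67 CPM per kb in p53+/+, above the members' median of 1.45, and at 0.525 CPM per kb in p53-/-. Alkbh2 and Alkbh3, dioxygenases that reverse alkylation by oxidation, had log2 differences of -0.27 and -0.22 with overlapping genotypes.

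Nucleotide excision repair was one of the pathways whose median lay below 0, with a value of -0.35 over 6 genes that was -0.19 without library 7 and -0.18 without library 10. Ercc5 encodes XPG, the endonuclease that cuts on the 3′ side of the lesion, and had 23.6 and 25.1 CPM in p53+/+ and 11.5 and 10.2 in p53-/-. Its libraries agreed closely within each genotype and did not overlap between them. Ercc5 was 2.24-fold lower in p53-/-, at a log2 difference of -1.16 (SE 0.223, 95% interval -1.72 to -0.60), with an adjusted p of 0.103 in edgeR's quasi-likelihood test and 0.00184 in DESeq2. Xpa, the damage verification protein, had 11.8 and 10.1 CPM against 8.68 and 6.22, a log2 difference of -0.55 (95% interval -1.37 to 0.27). Xpc, the sensor of helix distortion and a known p53 target, had 16.03 and 18.8 CPM against 15.8 and 11.5. Xpc did not overlap between genotypes, but library 9 was almost level with library 7, and its log2 difference of -0.35 had an interval of -1.03 to 0.33.

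The other 3 members of the pathway were higher or overlapped. Ddb2, which recognises ultraviolet photoproducts, had 2.10 and 2.34 CPM in p53+/+ and 2.98 and 4.73 in p53-/-, a log2 difference of 0.79 (95% interval -0.37 to 1.95). Its log2 difference was 0.48 without library 10 and 1.08 without library 9. Human DDB2 is a p53 target, and here the gene was higher without p53 in both libraries, although 23.8% of its exon length overlaps Acp2 on the opposite strand and the counting was not stated to use strand. Ercc2, a helicase of TFIIH, had 10.4 and 11.9 CPM against 12.8 and 12.3 at a log2 difference of 0.17, and 42.7% of its exon length overlaps other genes. Ercc1, partner of the 5′ endonuclease, overlapped between genotypes at 10.03 and 6.29 against 5.87 and 6.96 CPM (log2 difference -0.35). The 15 other genes of this pathway in the list had a median of -0.00. Of these, 0 were higher and 4 lower without overlap (26.7%, where 24.4% of all genes were lower). The members with values below 0 were Ercc5, Xpa, Xpc and Ercc1.

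Translesion synthesis was represented by a pair of polymerases with opposite directions, at a median of -0.38 that was -0.24 without library 8. Polk, which bypasses bulky guanine adducts and is a known p53 target, had 12.3 and 17.1 CPM in p53+/+ and 7.32 and 6.76 in p53-/-. The p53-/- libraries were nearly alike and lay below both p53+/+ libraries, which differed from each other by more. The log2 difference was -1.06 (SE 0.308, 95% interval -1.83 to -0.29), with an adjusted p of 0.178 in edgeR's quasi-likelihood test and 0.0602 in DESeq2. Polh, which copies past ultraviolet dimers, had 8.42 and 8.76 CPM against 9.34 and 11.7, a log2 difference of 0.29 (95% interval -0.45 to 1.04). Of 7 other translesion genes, 4 were higher without overlap and 1 lower. The lower one was Rev1, the scaffold of the bypass polymerases, at 11.3 and 10.7 CPM against 4.95 and 7.36 (log2 difference -0.84, unadjusted edgeR p 0.0536, adjusted p 0.286). Of the Rev1 exon length, 26.6% overlaps Eif5b on the opposite strand.

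**Figure D2:**
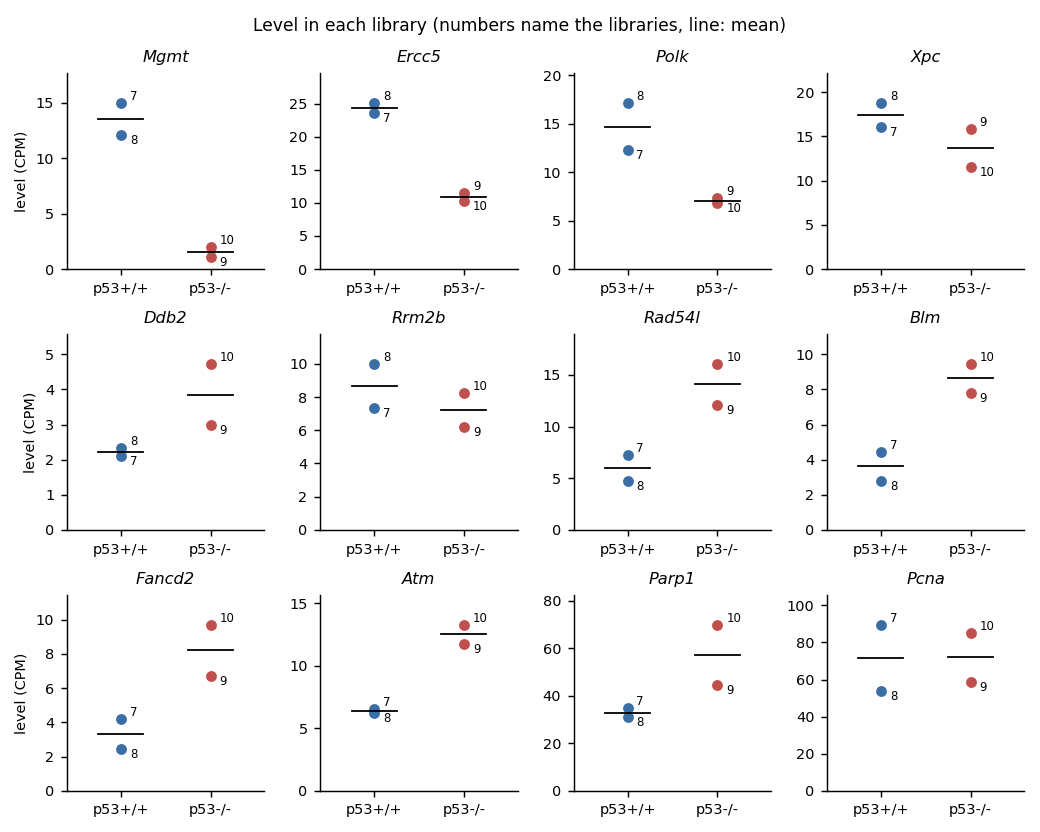
Level in CPM (y axis, from 0) of 12 members in each library, p53+/+ on the left and p53-/- on the right of each panel, with the library number beside each point and the mean as a line. Mgmt, Ercc5 and Polk are separated downward, Rad54l, Blm, Fancd2, Atm and Parp1 upward, and Pcna and Rrm2b overlap.

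All 8 homologous recombination genes were higher in p53-/- without overlap, with a median log2 difference of 0.97 and a range of 0.78 to 1.26. Without library 7 the median was 1.53, and without the other libraries in turn it was 0.85 to 1.21. Rad54l, a motor protein that acts during strand invasion, had 7.24 and 4.74 CPM in p53+/+ and 12.1 and 16.1 in p53-/-. Its log2 difference was 1.23 (SE 0.357, 95% interval 0.34 to 2.13), with an adjusted p of 0.177 in edgeR's quasi-likelihood test and 0.0510 in DESeq2. Blm, the helicase that dissolves recombination intermediates, had 4.46 and 2.79 CPM against 7.80 and 9.45, at a log2 difference of 1.25 (SE 0.403) and an edgeR adjusted p of 0.208. Palb2, which bridges BRCA1 and BRCA2, had 2.23 and 1.30 CPM against 4.21 and 4.28, at a log2 difference of 1.26 (SE 0.479) and an edgeR adjusted p of 0.260. In all 3 genes the gap between the genotypes was wider than the gap between the libraries of either one.

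Brca2, a tumour suppressor needed for homologous recombination, had 3.53 and 2.34 CPM in p53+/+ and 5.43 and 6.52 in p53-/- (log2 difference 1.02, SE 0.418, 95% interval -0.02 to 2.07, edgeR adjusted p 0.287). Brca1, which starts resection together with its partners, had 8.79 and 7.40 CPM against 12.8 and 17.4 (log2 difference 0.90, SE 0.302). Wrn, a helicase with exonuclease activity, had 9.90 and 12.2 CPM against 20.2 and 17.8 (log2 difference 0.78, SE 0.254). None of these 3 genes overlapped between genotypes, and the interval of Brca2 reached just below 0. Exo1, the long-range resection nuclease, had 8.91 and 3.89 CPM against 10.3 and 12.4, and Rad51c, which acts in recombination complexes, 1.67 and 0.843 against 1.71 and 3.08. In both genes library 7 came close to library 9, and the 95% intervals included 0 (-0.34 to 1.99 for Exo1 and -0.59 to 2.44 for Rad51c). The log2 difference of Exo1 was 0.34 without library 8 and 1.55 without library 7, and that of Rad51c was 0.50 without library 10 and 1.503 without library 7. At 13 to 62 counts per library, Rad51c was the least covered of the recombination genes.

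The 22 other recombination genes gave a median of 0.46, with 12 higher and 1 lower without overlap. Brip1, the helicase partner of BRCA1, had 3.90 and 3.05 CPM against 9.69 and 9.90, a log2 difference of 1.49, an adjusted p of 0.133 in edgeR's quasi-likelihood test and 0.0139 in DESeq2. It was among the 3 listed genes with the lowest unadjusted p in the higher direction, beside Topbp1 and Samhd1.

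The 3 Fanconi anemia genes, which handle crosslinks between strands, were also all higher without overlap. Fancd2, the protein that is ubiquitinated at stalled forks, had 4.21 and 2.47 CPM in p53+/+ and 6.71 and 9.70 in p53-/-, which gave the highest log2 difference of all 43 members at 1.29 (SE 0.448, 95% interval 0.17 to 2.42, edgeR adjusted p 0.230). Fanca, a subunit of the ubiquitin ligase core complex, had 7.43 and 6.36 CPM against 14.5 and 11.8 (log2 difference 0.93, SE 0.298). Fancc, of the same complex, had 4.21 and 4.41 CPM against 5.04 and 5.82, and its log2 difference of 0.33 had an interval of -0.58 to 1.24. The difference between Fanca and Fancc was not tested, and 10.5% of the Fanca exon length and 18.6% of that of Fancc overlapped other genes. Among the 12 other Fanconi genes the median was 0.55, with 7 higher and 1 lower without overlap. The lower one was Faap100, a core complex subunit, at 33.5 and 25.2 CPM against 17.9 and 18.4 (log2 difference -0.70, unadjusted edgeR p 0.0232, adjusted p 0.205).

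Damage sensing and checkpoint genes were higher without overlap in 7 of 7 cases, by unequal amounts. Atm, the kinase that answers double-strand breaks, had 6.56 and 6.23 CPM in p53+/+ and 11.7 and 13.3 in p53-/-, a log2 difference of 0.97 (SE 0.289, 95% interval 0.24 to 1.69, edgeR adjusted p 0.186). Atr, the kinase that answers single-stranded DNA at forks, had 6.25 and 7.27 CPM against 11.5 and 12.0 (log2 difference 0.80, SE 0.293). Chek1, the effector kinase of ATR, had 4.64 and 2.21 CPM against 7.23 and 6.42 (log2 difference 0.99, SE 0.480, 95% interval -0.21 to 2.20). Atm and Atr were tight within each genotype, while the p53+/+ values of Chek1 lay far apart, and the log2 difference of Chek1 was 0.55 without library 8 and 1.64 without library 7.

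The remaining sensors had smaller values. Chek2, the effector kinase of ATM, had 10.1 and 9.67 CPM against 10.5 and 11.2 (log2 difference 0.14). Nbn and Rad50, subunits of the MRN complex that holds broken ends, had log2 differences of 0.12 and 0.30, with 95% intervals of -0.44 to 0.67 and -0.25 to 0.86. Trp53bp1, the chromatin protein that shields ends from resection, had 9.90 and 11.5 CPM against 13.9 and 17.3 (log2 difference 0.54, 95% interval -0.14 to 1.22). The ATM and ATR kinase genes had larger values than the MRN subunits and Chek2, a difference between genes that was not itself tested. The 16 other sensing genes had a median of 0.21, with 7 higher and 0 lower without overlap. Topbp1, the activator of ATR, was the clearest of them at 37.1 and 30.0 CPM against 62.4 and 62.8, with a log2 difference of 0.90 and an adjusted p of 0.103 in edgeR's quasi-likelihood test and 0.00315 in DESeq2.

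End joining genes showed little difference, with a median of 0.08 over 5 members, 2 higher without overlap and 3 overlapping. Their median was 0.36 without library 7, -0.10 without library 8, 0.27 without library 9 and 0.08 without library 10. Xrcc5 and Xrcc6 encode Ku80 and Ku70, the ring that caps broken ends. Xrcc5 had 16.5 and 10.1 CPM against 10.8 and 17.3, and its low library in each genotype (8 and 9) lay below the high library of the other. Xrcc6 had 19.9 and 16.6 CPM against 20.5 and 22.04 (log2 difference 0.22). Xrcc4 and Lig4, the ligation complex, had log2 differences of 0.08 (95% interval -0.92 to 1.08) and -0.10 (-0.78 to 0.58). Prkdc, the catalytic subunit of DNA-PK, had 7.24 and 8.30 CPM against 9.03 and 16.2, and its log2 difference of 0.70 was 0.27 without library 10 and 1.06 without library 9. Among the 9 other end joining genes, Polq, the polymerase of the alternative microhomology route, had 3.34 and 1.75 CPM against 8.63 and 8.21, a log2 difference of 1.72 and an adjusted p of 0.157 in edgeR's quasi-likelihood test and 0.0261 in DESeq2. Tdp2, which removes topoisomerase II from DNA ends, gave the third lowest unadjusted p among the lower listed genes (0.135) with a log2 difference of -0.59. It had 53.5 and 26.9 CPM against 25.9 and 27.5, with overlapping genotypes, and library 7 alone stood above the other 3 libraries.

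Base excision and single-strand break repair had a median of 0.38 over 6 members. Without overlap, 2 were higher (33.3%, where 26.4% of all genes were), and 4 overlapped. The median was 0.07 without library 8, 0.18 without library 10, and 0.56 and 0.60 without libraries 7 and 9. Parp1, the sensor of strand breaks, had 34.7 and 31.1 CPM in p53+/+ and 44.3 and 69.8 in p53-/-, a log2 difference of 0.79 (SE 0.251, 95% interval 0.16 to 1.42, edgeR adjusted p 0.203). That difference was 0.48 without library 10 and 1.08 without library 9. Xrcc1, the scaffold that PARP1 recruits, had 19.6 and 18.2 CPM against 19.7 and 29.9. Both genes were highest in library 10, and Xrcc1 in library 9 was level with library 7. The uracil glycosylase Ung and the ligase Lig1 had log2 differences of 0.42 and 0.38 with overlapping genotypes. The oxidised guanine glycosylase Ogg1 and the abasic site nuclease Apex1 had -0.18 and -0.04, again with overlap, and 61.7% of the Apex1 exon length overlaps Pip4p1 on the opposite strand. The 15 other genes tested had a median of 0.21. Of these, 6 were higher (40%) and 3 lower (20%) without overlap, where 26.4% and 24.4% of all genes were. Neil2 had too few reads (2 to 9 counts per library).

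Mismatch repair was covered by 2 members, with a median of 0.50 that was 0.32 without library 8 or library 10 and 0.72 and 0.70 without libraries 7 and 9. Msh6, which recognises mismatches, overlapped at 36.3 and 28.7 against 30.9 and 38.6 CPM (log2 difference 0.10, 95% interval -0.43 to 0.62). Pms2, part of the nicking complex, had 4.21 and 3.11 CPM against 5.52 and 8.26 (log2 difference 0.91, 95% interval -0.13 to 1.95). Of the 5 other mismatch genes 3 were higher and 0 lower without overlap, at a median of 0.52.

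Nucleotide supply and fork genes had a median of 0.01 over 3 members, which ranged from -0.22 without library 10 to 0.43 without library 7. Pcna, the sliding clamp, had 89.5 and 53.8 CPM in p53+/+ and 58.8 and 85.1 in p53-/-. The spread within each genotype was larger than the difference between their means, and the log2 difference was 0.01 (95% interval -0.77 to 0.78). Per exon length Pcna was the highest member in both genotypes, at 29.8 and 30.0 CPM per kb. Rpa1, the large subunit that coats single-stranded DNA, had 34.2 and 25.6 CPM against 36.6 and 63.0, and its log2 difference of 0.74 (95% interval -0.03 to 1.51) was 0.35 without library 10 and 1.07 without library 9.

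Rrm2b encodes p53R2, the ribonucleotide reductase subunit that serves resting and damaged cells and is a known p53 target. It had 7.36 and 9.99 CPM in p53+/+ and 6.22 and 8.26 in p53-/-, with overlapping genotypes and a log2 difference of -0.26 (95% interval -1.14 to 0.62). Rrm2, the subunit of dividing cells, overlapped as well at 41.9 and 23.8 against 35.1 and 47.1 CPM (log2 difference 0.32), and Rrm1, the large subunit shared by both, had 52.97 and 32.1 CPM against 59.0 and 72.1 (log2 difference 0.62). On the scale of CPM per kb, p53+/+ libraries held 11.9 of Rrm2, 3.86 of Rrm1 and 0.950 of Rrm2b. Samhd1, which breaks down deoxynucleotides and also promotes resection, had 36.3 and 52.5 CPM against 95.9 and 144, at a log2 difference of 1.44 and an adjusted p of 0.106 in edgeR's quasi-likelihood test and 0.000313 in DESeq2. Samhd1 levels rose in the order of libraries 7, 8, 9 and 10, as did 9.48% of all genes. The summed T cell, B cell, macrophage and red blood cell markers rose in that order as well. Single genes of these lists, among them Cd3d, Cd8a, Adgre1 and Cd163, did not. The part of immune cells in this difference was not tested. All 12 other genes of this group had values above 0, and 6 of them were higher without overlap.

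**Figure D3:**
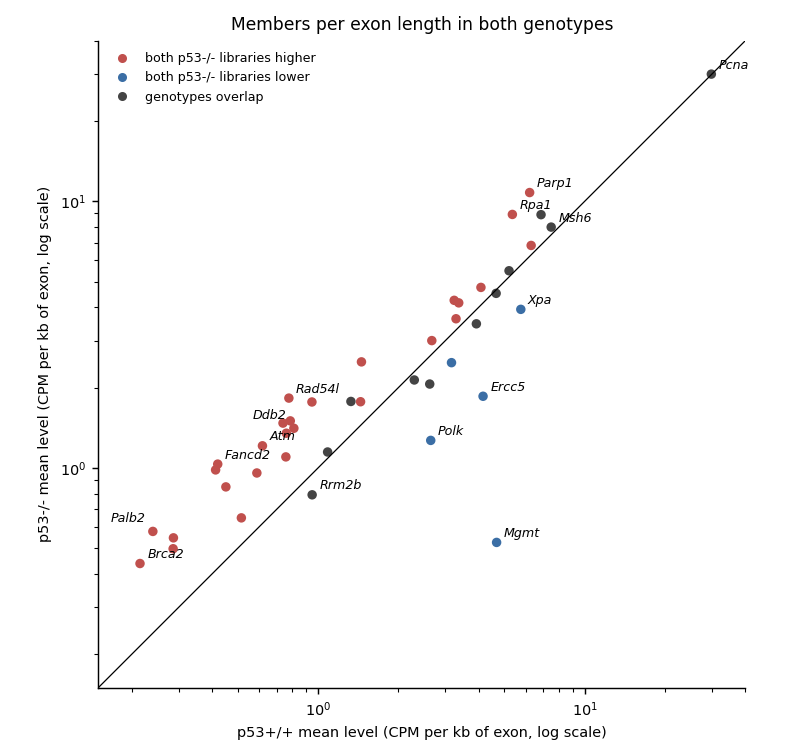
Mean level of each member in p53-/- (y axis) against p53+/+ (x axis), both in CPM per kb of exon on log axes, with the line of equal levels. Red points had both p53-/- libraries higher, blue points both lower, grey points overlapped. Pcna sits on the line at the top, Mgmt is farthest below it, and recombination genes such as Brca2 and Palb2 lie above it at the low end.

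Levels per exon length spanned 0.215 CPM per kb (Brca2) to 29.8 (Pcna) in p53+/+, and 18 of the 43 members were under 1 CPM per kb. Genes with little RNA for their length included Brca2, Palb2, Atr, Rad51c, Blm and Fancd2, all of them higher in p53-/- without overlap. Mgmt, Xpa, Xpc, Ercc5 and Polk, which were lower in p53-/- without overlap, stood between 2.65 and 5.76 CPM per kb in p53+/+. Level and direction did not always pair in this way. Rrm2b, at 0.950 CPM per kb in p53+/+, overlapped between genotypes. Nbn, Parp1 and Rpa1, at 6.30, 6.22 and 5.35, were higher in p53-/- without overlap.

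Over the whole set of 116 further repair genes, chosen for their pathways, 115 were tested. Their median log2 difference was 0.26, with 86 above 0 and 29 below, 49 higher without overlap (42.6%), 11 lower (9.57%) and 55 overlapping. Over all genes, 26.4% were higher and 24.4% lower without overlap. EdgeR's quasi-likelihood test called 0 in either direction. At an unadjusted edgeR p under 0.05, 18 were higher (10% of all genes) and 1 lower (7.92% of all genes). DESeq2 called 6 higher of the 115 (Topbp1, Clspn, Bard1, Brip1, Polq and Samhd1) and 0 lower, where it called 5.05% of all genes higher and 4.12% lower. Clspn, the adaptor through which ATR activates CHK1, and Bard1, the ubiquitin ligase partner of BRCA1, had log2 differences of 1.32 and 1.35.

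Markers of dividing cells were higher alongside the recombination and Fanconi genes. The 18 proliferation genes summed to 598 and 374 CPM in p53+/+ and 963 and 1124 in p53-/-. Their median log2 difference was 0.96, with 17 of 18 higher without overlap. The medians of recombination and Fanconi members were close to this at 0.97 and 0.93, over 8 and 3 genes. The other genes of these pathways had lower medians, 0.46 over 22 recombination genes and 0.55 over 12 Fanconi genes. DESeq2 called 10 of the 18 higher, edgeR's quasi-likelihood test 0, and 12 had an unadjusted p under 0.05 in edgeR. Values within the list ran from 0.56 (Gins1, which overlapped) to 1.57 (Top2a), with Mcm2 at 0.64. Of replication genes outside the list, Pcna, Dut, Rrm2 and Lig1 overlapped between genotypes (0.01, 0.25, 0.32 and 0.38). Rrm1, Tyms and Fen1 were higher without overlap (0.62, 0.65 and 1.13). Fen1 had 16 to 67 counts per library, and 84.2% of its exon length overlaps other genes on the opposite strand. The 5 crypt stem cell genes summed to 216 and 170 CPM against 650 and 669, of which Olfm4 made up 47.6 and 15.96 CPM in p53+/+ and 473 and 525 in p53-/-. Lgr5 and Smoc2 were also higher in p53-/- without overlap (log2 differences 0.67 and 0.47). Ascl2 was lower in p53-/- without overlap (log2 difference -0.82), and Axin2 had -0.24 with overlapping genotypes. The order of the libraries by summed proliferation level, 8, 7, 9, 10 from low to high, was followed exactly by 15 of the 43 members (34.9%) and 7.61% of all genes. Those 15 were Atm, Chek2, Brca1, Brca2, Palb2, Rad51c, Rad54l, Exo1, Blm, Xrcc6, Xrcc1, Parp1, Pms2, Fancd2 and Rpa1. The order by T cell markers, 7, 8, 9, 10, was followed by 6 members (14.0%) and 9.48% of all genes. The part of dividing cells and of immune cells in the members' values was not tested.

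**Figure D4:**
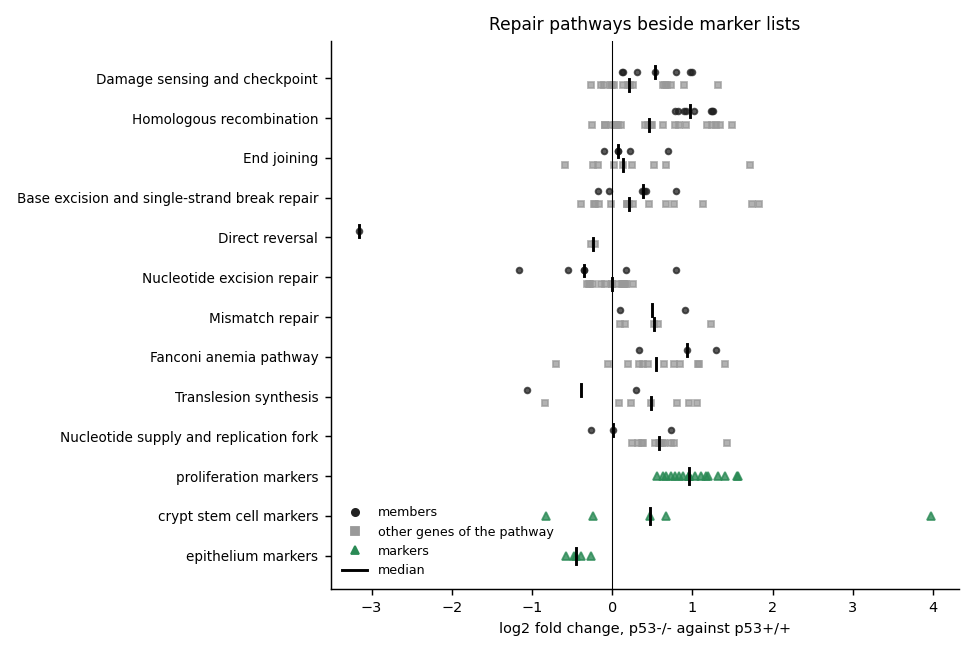
Log2 difference between p53-/- and p53+/+ (x axis) of each member (black), each other gene of the same pathway (grey) and each marker gene (green), 1 row per pathway or marker list, with medians as bars. Recombination and Fanconi members sit in the same range as the proliferation markers (medians 0.97, 0.93 and 0.96), while Mgmt stands alone at -3.15. The other recombination and Fanconi genes had lower medians of 0.46 and 0.55.

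The members also differed between libraries of the same genotype. Library 7 was above library 8 for 30 of 43 members (69.8%) and for 55.1% of all genes, and library 10 was above library 9 for 30 of 43 (69.8%) and for 51.2% of all genes. Exo1, Chek1, Rad51c and Ung were among the members with the widest gap between libraries 7 and 8. Mgmt, Ercc5 and Polk kept their direction without each of the 4 libraries.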

How the data were processed

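Total RNA of the SI was sequenced by a commercial provider, with poly-T selection per the labels. The authors deposited counts per gene, not normalized. Their processing notes name fastp, HISAT2 2.0.5, featureCounts 1.5.0-p3 and DESeq2 1.20.0, and the genome build and the strand setting were not given in the sources used here. Columns name the genotype but no replicate. Counts were tested as deposited with edgeR 4.0.16 (R 4.3.3), using TMM factors, filterByExpr and the quasi-likelihood test, with Benjamini-Hochberg adjustment over all 16094 genes at a threshold of 0.05, and with DESeq2 1.42.0 as an alternative. The method was tested on simulated data. Levels are CPM on library totals over the tested genes, multiplied by the TMM factors. These factors were 0.928, 1.029, 1.030 and 1.017 for libraries 7, 8, 9 and 10. Exon lengths and overlaps came from GENCODE M21. Values in brackets after a log2 difference are standard errors or 95% intervals. The standard error is the absolute log2 difference divided by the square root of the quasi-likelihood F statistic. Intervals use a t quantile at 5.45 degrees of freedom, of which 3.45 are prior degrees estimated over all genes. Library totals of 15005479 to 22173164 counts set the counting error.

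The members, the 116 further repair genes and the marker lists (epithelium, crypt stem cell, proliferation, T cell, B cell, macrophage, smooth muscle, adipocyte, red blood cell and Y-linked genes) were chosen with earlier results of these data known, so no p-value over a list was computed. All members were named by pathway. Fuller statistics went to members past an adjusted p of 0.05 in either tool and those with the 5 largest or 5 smallest log2 differences, and to the 3 further genes with the lowest unadjusted p in each direction, and others were named beside them for their role or for a DESeq2 call. Alternatives were other scalings, filters and tests and leaving out each library.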

Additional observations from a re-analysis of the deposited data

How the results depend on the processing

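No member passed an adjusted p of 0.05 in edgeR's quasi-likelihood test with TMM, RLE or upper-quartile factors, with library size only, or with at least 10 counts in every library. Members called lower numbered 2 with DESeq2, 2 with edgeR's likelihood ratio test and 2 without the filter, and 0 to 1 when a library was left out. Members called higher numbered 3 without the filter (Rad54l, Parp1 and Rpa1), where the estimated prior degrees of freedom were infinite, 27841 genes were tested and 1433 were called higher and 761 lower, against 48 and 31. DESeq2 called 812 and 663, the likelihood ratio test 833 and 462, and leaving out libraries 7, 8, 9 and 10 gave 325 and 319, 680 and 344, 77 and 9, and 0 and 0. Library size only gave 26 and 20, upper-quartile factors 29 and 20, and at least 10 counts 24 and 18. Further repair genes called higher numbered 6 with DESeq2, 2 with the likelihood ratio test, 11 without the filter and 0 to 2 without a library, and those called lower 0 to 1 without a library. Trp53 passed with DESeq2 (log2 difference -1.32), the likelihood ratio test (-1.31) and no filter (-1.26), and without a library lay between -1.45 and -1.15, passing without library 7 or 8. Mgmt passed under 5 alternatives (DESeq2, likelihood ratio test, no filter, without library 7, without library 8), and Ercc5 under the first 3. The median of all members was 0.27 to 0.60 without a library, that of sensing genes 0.44 to 0.68, of recombination 0.85 to 1.53, of nucleotide excision repair -0.44 to -0.18 and of base excision repair 0.070 to 0.60. Without a library, counted after the data were seen, members without overlap numbered 27 to 35 higher and 6 to 9 lower, where 37.6% to 42.8% of all genes were higher and 29.9% to 39.7% lower in these settings. Members near 0 changed sign. Apex1 was 0.039 with library size only, 0.016 with upper-quartile factors, 0.0066 without the filter and 0.037 with at least 10 counts, and Pcna was -0.0036 with DESeq2 and -0.0038 with RLE factors. Leaving out libraries gave -0.33 to 0.32 for Apex1, -0.32 to 0.43 for Pcna, -0.41 to 0.097 for Ogg1, -0.65 to 0.036 for Ercc1, -0.15 to 0.34 for Xrcc4, -0.24 to 0.48 for Xrcc5, -0.070 to 0.28 for Msh6 and -0.25 to 0.082 for Lig4. The cause of these changes was not tested. No paired analysis was possible because the columns carry no replicate numbers. Rad51c had 13 to 62 counts and Palb2 20 to 96 per library, and the part of counting error in their spread was not tested.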
